A study of Homo sapiens with 6 samples.

Results

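Translation initiation factors are the proteins that bring the ribosome, the initiator tRNA and an mRNA together. Their genes were taken from the deposited table as the protein-coding rows, outside chromosome Y, whose names begin with EIF1 to EIF6, leaving out the eIF2 kinases (EIF2AK). This gave 51 genes of 60623 in the table, of which 45 had a mean level of at least 1 FPKM (fragment counts divided by the length of the gene and by the library's size) over the 6 libraries and were tested. RNA came from LX2, an established line of human hepatic stellate cells that is labelled wild type and was kept in 2% serum. Transfection lasted 36 h, with the control siNC for 3 libraries and with siSHMT2, which targets SHMT2, for the other 3. SHMT2 is the gene of the mitochondrial enzyme that converts serine to glycine and loads folate with a carbon unit. Both groups share the line, the medium and the transfection, and only a single line was used.

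In cells, eIF2 carries the initiator tRNA to the small ribosomal subunit, where eIF1, eIF1A, eIF3 and eIF5 assemble, and eIF2B recharges eIF2 with GTP after each round. The cap-binding protein eIF4E, the scaffold eIF4G and the helicase eIF4A form eIF4F, which recruits the mRNA, and 4E-binding proteins hold eIF4E away from eIF4G until mTORC1 phosphorylates them. eIF5B joins the ribosomal subunits, eIF6 keeps free large subunits apart, and eIF5A, named as an initiation factor, is known mainly for helping elongation and termination.

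SHMT2 itself was at 40.8, 56.3 and 45.1 FPKM in the siNC libraries and at 2.25, 2.10 and 2.42 FPKM in the siSHMT2 libraries, 4.77% of the siNC mean. It fell by 3.88 on the log2(FPKM + 1) scale (SE 0.132, limma adjusted p = 2.08e-05), and the exact two-sided permutation test gave p = 0.1, the smallest that 3 against 3 libraries allow. Each library corresponded to 14722344 to 15669139 reads, and the leading principal component over all tested genes (53.2% of the variance) separated the groups. Of 12 stellate cell or fibroblast markers, 9 averaged at least 1 FPKM, led by TIMP1 at 822 FPKM, with LRAT listed at 0. ACTA2 and DES averaged 0.605 and 0.0993 FPKM. The 12 markers summed to 1866 to 2733 FPKM in siNC and 1456 to 1669 FPKM in siSHMT2 libraries. The part of this sum in the results below was not tested. Within that sum VIM fell (823 to 501 FPKM, limma adjusted p = 0.0191), and TIMP1 had means of 990 and 654 FPKM with overlapping groups. COL1A1, SPARC and PDGFRB had lower means in siSHMT2, with overlapping groups, and were not called. COL1A2, COL3A1, COL5A1 and LOX had higher means in siSHMT2 and were not called. Of these, only COL5A1 had groups that did not overlap. None of 5 hepatocyte and none of 5 endothelial markers averaged 1 FPKM (sums of 0.299 to 1.35 and 0.310 to 0.626 FPKM), 2 of 4 cholangiocyte markers did (sums of 8.72 to 11.2 FPKM, mostly SOX9), and of 5 blood cell markers only CD14 did (sums of 13.2 to 19.2 FPKM), with CD163 at 0. The labels do not say whether replicates were separate cultures, so p-values measure the spread between these libraries only.

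Most initiation factor genes were not called different between the groups. A gene is called here where its limma adjusted p over all 10865 tested genes was under 0.05. Of the 45 tested initiation factor genes, 3 were called lower in siSHMT2 (EIF5A2, EIF1AD and EIF3J) and 0 were called higher, against 9.85% of all tested genes called lower and 6.07% called higher. In either direction 6.67% of the initiation factor genes were called, against 15.9% of all genes tested. At an unadjusted p under 0.05, 3 were higher and 8 lower, against 14.2% and 16.0% of all genes. On the recovered reads, limma voom called 0 higher and 4 lower, against 6.54% and 11.2% of all genes. On the FPKM values, array weights (each library weighted by its spread) called 5 higher and 10 lower, against 16.8% and 18.2% of all genes. With FPKM rescaled to TPM, which gives every library the same sum, the calls were 1 higher (EIF3F) and 2 lower, and over all genes they changed from 659 higher and 1070 lower to 686 and 620. With plain read sums as totals the calls were 2 higher (EIF2B2 and EIF3F) and 3 lower, and 796 and 767 over all genes. FPKM and TPM are both relative to a library total, so neither cell number nor RNA per cell can be read from them.

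The siNC and siSHMT2 libraries did not overlap for 5 initiation factor genes that were higher (11.1%, against 17.9% of all genes) and for 11 that were lower (24.4%, against 18.6% of all genes). The median difference was -0.01 on the log2(FPKM + 1) scale, against 0.02 over all tested genes, with 22 genes above 0 and 23 below. The median size of a difference without its sign was 0.19, against 0.20 over all tested genes, and 36 of the 45 genes differed by less than 0.3, against 7231 of all 10865 tested genes. The standard errors of the differences ran from 0.0918 to 0.244, with a median of 0.121.

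**Figure D1:**
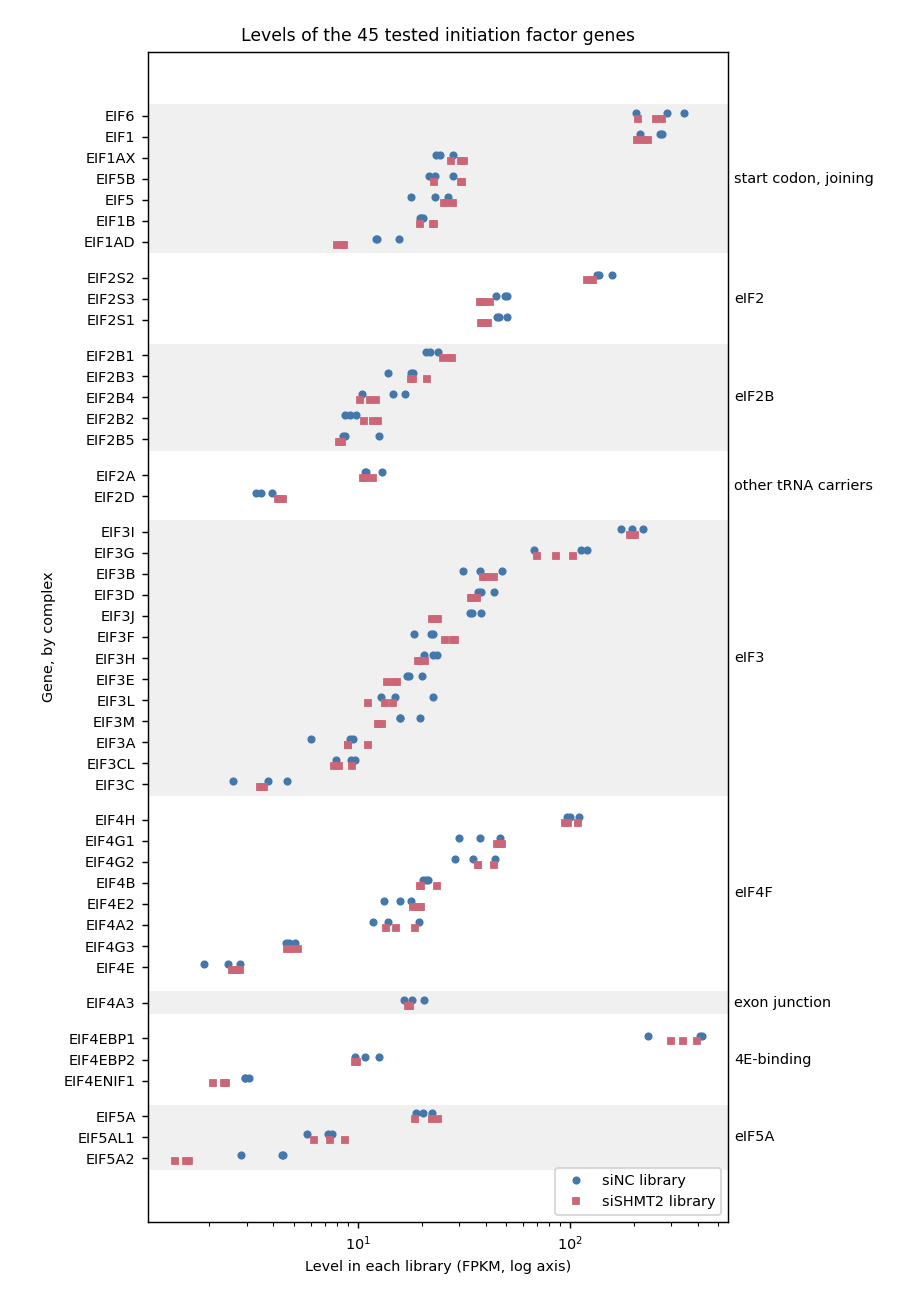
Level of each of the 45 tested initiation factor genes in each library (x axis, FPKM on a log axis), grouped by complex on the y axis, with siNC libraries as circles and siSHMT2 libraries as squares. EIF4EBP1, EIF6 and EIF1 have the highest means, and the 3 siSHMT2 squares of EIF5A2 lie lowest, at 1.37 to 1.60 FPKM.

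**Figure D2:**
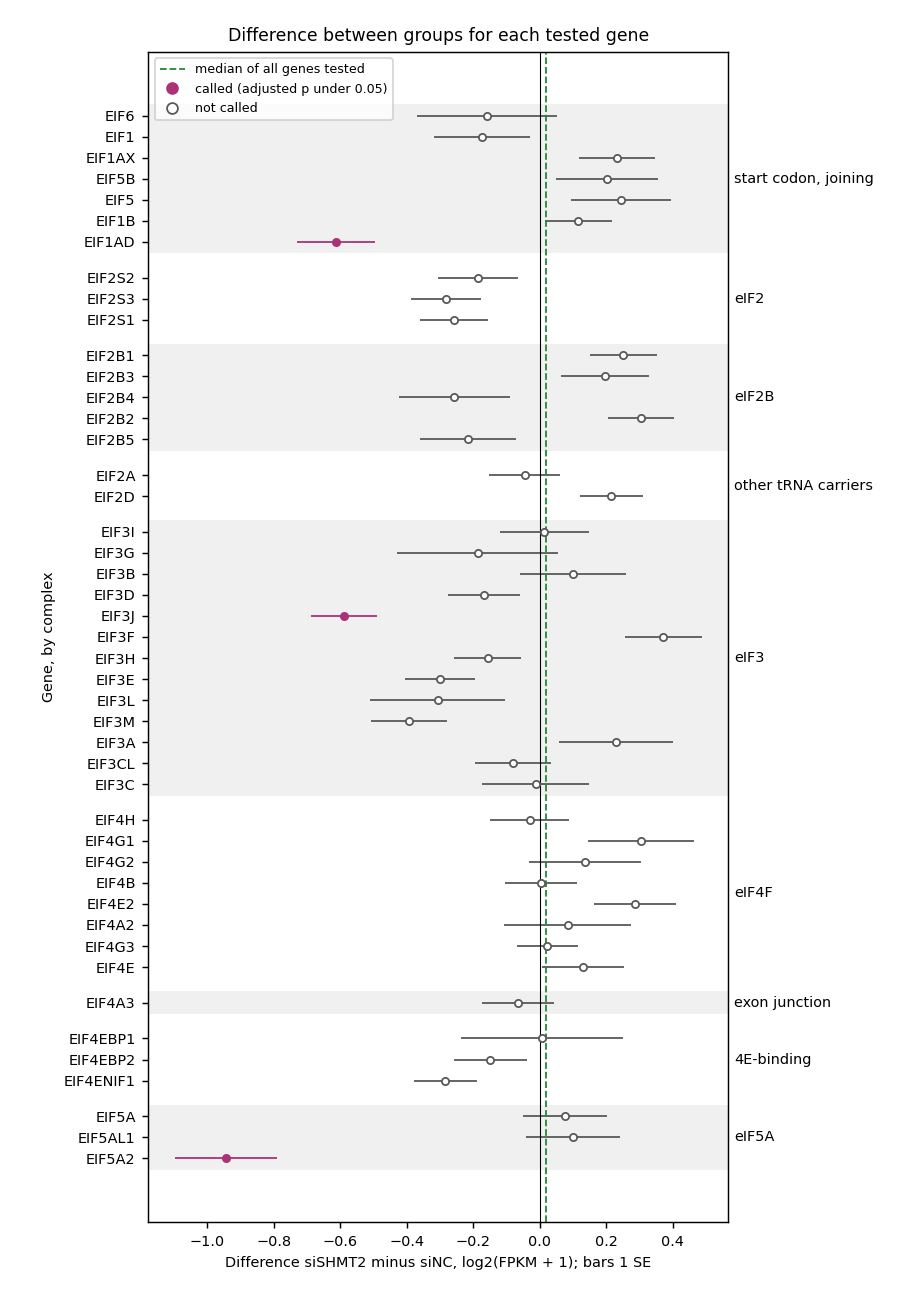
Difference between siSHMT2 and siNC (x axis, log2(FPKM + 1), points with bars of 1 SE) for each tested initiation factor gene, grouped by complex on the y axis. The 3 filled points, EIF1AD, EIF3J and EIF5A2, are the called genes and lie between -0.94 and -0.59, and the dashed line marks the median of all tested genes at 0.02.

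**Figure D3:**
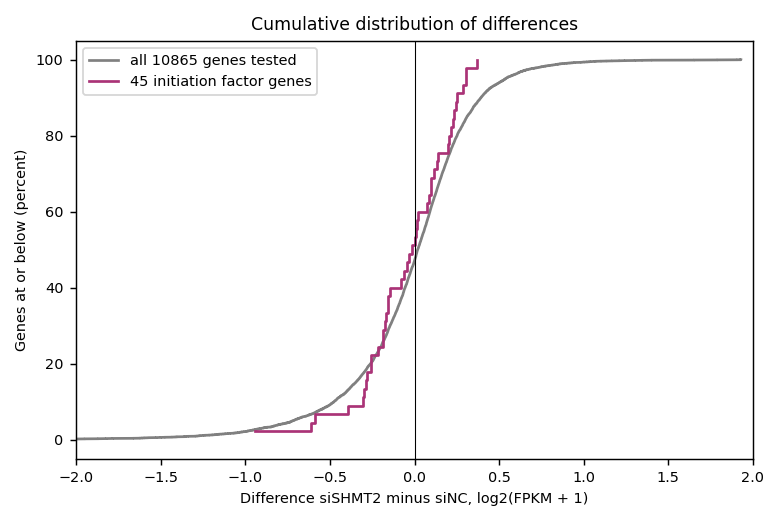
Cumulative share of genes (y axis, percent) at or below each difference between siSHMT2 and siNC (x axis, log2(FPKM + 1)), for the 45 initiation factor genes and for all 10865 tested genes. The initiation factor curve ends at 0.37 and begins at -0.94, while the curve of all genes runs on past both ends.

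The 7-base words GACTTTA and ACTTTAA in the longest annotated 3′ UTR were picked earlier on the fold changes of these same libraries, so their link with lower levels is no independent support. Only the mRNA strand was searched, and the words share the letters ACTTTA, so that GACTTTAA counts for both. The windows of 23 bases below, on GRCh38 with GENCODE 29, show every match of the called genes and, for comparison, those of EIF5, which holds both words and was not called. Capitals mark the word.
EIF1AD, chr11:65997903-65997925, minus strand: catctcctGACTTTAtttgaaac
EIF5A2, chr3:170890924-170890946, minus strand: agatatggGACTTTAttttcaca
EIF5A2, chr3:170891450-170891472, minus strand: agcaagatACTTTAAgagaaata
EIF5A2, chr3:170890128-170890150, minus strand: gtttttgtACTTTAAggtttctc
EIF5A2, chr3:170888613-170888635, minus strand: tcgctaaaACTTTAAaattctaa
EIF5, chr14:103343650-103343672, plus strand: caagcactGACTTTAtgcctttg
EIF5, chr14:103341397-103341419, plus strand: ggctccttACTTTAAatgttctg
In EIF1AD the word starts at base 682 of a 3′ UTR of 2054 bases, and in EIF5A2 the words start at bases 1896, 2422, 3218 and 4733 of 4945. In EIF5 they start at bases 353 and 2606 of 3973. EIF3J, whose 3′ UTR has 1654 bases, holds neither word.

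Of the 45 tested initiation factor genes, 13 (28.9%) held either word, against 24.4% of the 9448 tested protein-coding genes searched. Among the 13, 2 were called lower and the median difference was -0.15. Among the 32 with neither word, 1 was called lower and the median difference was -0.0042. Over all protein-coding genes, 553 of 2310 with either word were called lower and 62 higher (median difference -0.13), and 410 of 7138 with neither word were called lower and 529 higher (median difference 0.06). Genes with a word also had longer 3′ UTRs, with a median of 3076 against 537.5 bases among initiation factor genes and 2745 against 984 bases over all. Of the 13 holders, 7 were below 0, and the holder with the highest difference was EIF3F at 0.37, which was not called.

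EIF5A2 encodes the second form of eIF5A, which like EIF5A carries the modified lysine hypusine. The gene (ENSG00000163577, chromosome 3, 170888418 to 170908644, minus strand) was at 4.43, 2.82 and 4.41 FPKM in siNC and at 1.60, 1.37 and 1.55 FPKM in siSHMT2. Every siSHMT2 library was below every siNC library, with the low siNC library, replicate 2, still above them. The mean went from 3.89 ± 0.926 to 1.51 ± 0.120 FPKM (SD, n = 3 each), 0.388 times the siNC level, on 126 to 429 reads per library. EIF5A2 fell by 0.94 on the log2(FPKM + 1) scale (SE 0.153, limma adjusted p = 0.00614).

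EIF5A, the main form, was at 18.7, 22.5 and 20.2 FPKM in siNC and at 24.0, 18.7 and 22.4 FPKM in siSHMT2. The groups overlapped, with a difference of 0.07 (SE 0.126, limma adjusted p = 0.734), which was 0.0014 without siSHMT2 replicate 1 and 0.17 without siSHMT2 replicate 2. The ratio of EIF5A to EIF5A2 FPKM was 4.23 to 7.99 in siNC and 13.6 to 15.0 in siSHMT2 libraries. EIF5AL1, an eIF5A-like copy, ranged from 5.77 to 8.69 FPKM over the 6 libraries, and its groups overlapped. Both hypusine-forming enzymes, DHPS and DOHH, were tested and neither was called (lowest limma adjusted p = 0.386).

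EIF1AD encodes a protein with an eIF1A-like domain that is not one of the classical initiation factors. The gene (ENSG00000175376, chromosome 11, 65996545 to 66002176, minus strand) was at 12.4, 15.7 and 12.1 FPKM in siNC and at 7.97, 8.50 and 8.61 FPKM in siSHMT2. The groups did not overlap, and the siSHMT2 libraries lay close together. The mean went from 13.4 ± 1.99 to 8.36 ± 0.344 FPKM (SD, n = 3 each), 0.624 times the siNC level. EIF1AD fell by 0.61 (SE 0.118, limma adjusted p = 0.0123), and without siSHMT2 replicate 1 the adjusted p was 0.0677. Of its exon bases, 2.95% overlap BANF1 on the opposite strand, a gene at 288 to 460 FPKM, and whether reads were counted by strand is not stated in these sources.

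The other genes of start codon recognition and subunit joining were not called. EIF6, the most abundant of them, was at 205, 344 and 285 FPKM in siNC and at 254, 209 and 273 FPKM in siSHMT2. These overlapping groups had means of 278 ± 69.3 and 245 ± 32.8 FPKM (SD, n = 3 each), a difference of -0.16 (limma adjusted p = 0.662). EIF1, which guards the choice of start codon, had means of 250 and 221 FPKM, and its neighbour by sequence, EIF1B, 19.9 and 21.7 FPKM. EIF1AX (25.3 and 29.9 FPKM), EIF5 (22.5 and 26.5 FPKM), the GTPase activator of eIF2, and EIF5B (24.3 and 28.2 FPKM) had overlapping groups as well. Over these 7 genes, EIF1AD included, the median difference was 0.12.

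EIF3J encodes the loosely held subunit of eIF3 that contacts the small ribosomal subunit near the mRNA channel. The gene (ENSG00000104131, chromosome 15, 44537125 to 44563029, plus strand) was at 38.0, 34.4 and 33.8 FPKM in siNC and at 23.9, 22.5 and 23.2 FPKM in siSHMT2. The groups were narrow and did not overlap. The mean went from 35.4 ± 2.28 to 23.2 ± 0.724 FPKM (SD, n = 3 each), 0.655 times the siNC level. EIF3J fell by 0.59 (SE 0.0996, limma adjusted p = 0.00724), and under TPM the adjusted p was 0.0506. Of its exon bases, 5.85% overlap SPG11 on the opposite strand, a gene at 1.02 to 1.75 FPKM.

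eIF3 is the largest initiation factor and holds the small subunit ready for the other factors. Of its 14 genes 13 were tested, and 1 was called lower, EIF3J (7.69% in either direction, against 15.9% of all tested genes). The median difference was -0.16, against 0.02 over all tested genes. Below 0 were 9 of the 13, and 5121 of all 10865 tested genes. The most abundant, EIF3I, was at 173, 220 and 196 FPKM in siNC and at 197, 192 and 204 FPKM in siSHMT2, a difference of 0.01 (SE 0.134, limma adjusted p = 0.963). All siSHMT2 values of EIF3I lay inside the siNC range. The groups did not overlap for EIF3D, EIF3E and EIF3M, which were lower in siSHMT2, and for EIF3F, which was higher. With EIF3J, 4 of the 13 tested genes were lower without overlap (30.8%, against 18.6% of all tested genes). The 1 higher gene made 7.69%, against 17.9% of all tested genes. Named after their values were seen, EIF3M had a difference of -0.39 (SE 0.113, limma adjusted p = 0.0533), EIF3F of 0.37 (SE 0.115, adjusted p = 0.0664) and EIF3E of -0.30 (SE 0.106, adjusted p = 0.0963). EIF3M was at 15.8, 19.7 and 15.8 FPKM in siNC and at 12.6, 13.1 and 12.5 FPKM in siSHMT2, and EIF3F at 18.4, 22.7 and 22.1 and then at 28.0, 25.8 and 28.7 FPKM. The core subunits EIF3A (8.24 and 9.71 FPKM) and EIF3B (38.9 and 41.2 FPKM) had overlapping groups, as did EIF3G, EIF3H, EIF3L, EIF3C and EIF3CL. Summed FPKM of the 14 genes was 527 ± 57.3 in siNC and 492 ± 24.3 in siSHMT2 (SD, n = 3 each). The sum over all tested genes was also lower in siSHMT2, at 352978 ± 40443 in siNC and 329399 ± 20061 FPKM in siSHMT2 (SD, n = 3 each).

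None of the 3 tested subunits of eIF2 was called, against 15.9% of all tested genes. All 3 lay lower in every siSHMT2 library than in every siNC library, as did 18.6% of all tested genes. With array weights EIF2S1 and EIF2S3 were called lower (18.2% of all genes were). The alpha subunit EIF2S1, whose phosphorylation by the eIF2 kinases slows initiation, was at 46.4, 50.5 and 45.2 FPKM in siNC and at 38.9, 41.2 and 38.2 FPKM in siSHMT2. Its groups did not overlap, and the difference was -0.26 (SE 0.103, limma adjusted p = 0.137). The beta subunit EIF2S2, the most abundant, was at 134, 157 and 137 FPKM and then at 120, 127 and 128 FPKM, a difference of -0.18 (SE 0.121, limma adjusted p = 0.355) that was -0.11 without siNC replicate 2 and -0.092 with TPM. The gamma subunit EIF2S3, which binds GTP and the tRNA, had means of 48.3 ± 3.02 and 39.5 ± 2.04 FPKM (SD, n = 3 each), a difference of -0.28 (limma adjusted p = 0.116). Summed FPKM of the eIF2 genes was 239 ± 17.1 in siNC and 204 ± 6.36 in siSHMT2 (SD, n = 3 each), where the mean sum over all tested genes was 352978 and 329399 FPKM.

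The 5 genes of eIF2B, the exchange factor of eIF2, did not share a direction, and none was called, against 15.9% of all tested genes. EIF2B1, the most abundant, was at 23.8, 22.0 and 21.0 FPKM in siNC and at 27.2, 27.7 and 25.1 FPKM in siSHMT2. Its siSHMT2 values all lay above the siNC values, with a difference of 0.25 (SE 0.101, limma adjusted p = 0.140). EIF2B2, named after its values were seen, was at 8.74, 9.19 and 9.76 FPKM and then at 11.8, 10.7 and 12.5 FPKM, also without overlap (difference 0.30, SE 0.0993, limma adjusted p = 0.0781). EIF2B5, the catalytic epsilon subunit, had means of 9.92 and 8.27 FPKM, with every siSHMT2 library below every siNC library. EIF2B3 (16.7 and 19.1 FPKM) and EIF2B4 (13.9 and 11.3 FPKM) had overlapping groups. Without overlap, 2 of the 5 genes were higher (40.0%, against 17.9% of all tested genes) and 1 was lower (20.0%, against 18.6%). The median difference of the 5 genes was 0.20, against 0.02 over all tested genes.

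EIF2A and EIF2D can bring tRNA to the ribosome without eIF2, and neither was called. EIF2A was at 13.0, 10.9 and 10.8 FPKM in siNC and at 11.8, 10.9 and 10.6 FPKM in siSHMT2, overlapping groups with a difference of -0.05 (limma adjusted p = 0.814). EIF2D had means of 3.59 ± 0.319 and 4.32 ± 0.102 FPKM (SD, n = 3 each), without overlap, and a difference of 0.22 (limma adjusted p = 0.170).

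Of 11 genes for eIF4F and its helpers, 8 were tested, and 0 were called at an adjusted p under 0.05, against 15.9% of all tested genes. At an unadjusted p under 0.05, 0 passed, against 14.2% higher and 16.0% lower over all tested genes. The median difference of the 8 genes was 0.11, against 0.02 over all tested genes. The cap-binding protein EIF4E was at 2.79, 2.44 and 1.89 FPKM in siNC and at 2.66, 2.79 and 2.56 FPKM in siSHMT2, overlapping groups with a difference of 0.13 (SE 0.123, limma adjusted p = 0.523). It was 0.024 without siNC replicate 3, and 0.28 with array weights, where EIF4E was called higher (limma adjusted p = 0.0339). EIF4H, a helper of the helicase and the most abundant, was at 110, 97.2 and 99.7 FPKM and then at 97.4, 109 and 94.4 FPKM, again overlapping (difference -0.03, limma adjusted p = 0.895). The scaffolds EIF4G1 (38.2 and 46.6 FPKM) and EIF4G3 (4.81 and 4.90 FPKM), and EIF4G2 (36.0 and 39.2 FPKM), which lacks the eIF4E-binding site, had overlapping groups. So did the helicase EIF4A2 (15.0 and 15.8 FPKM) and its helper EIF4B (20.9 and 21.0 FPKM). Only EIF4E2, a cap-binding protein known for repression, had groups that did not overlap, at 13.3 to 17.9 FPKM in siNC and 18.2 to 19.8 FPKM in siSHMT2 (difference 0.29, limma adjusted p = 0.166). It was thus 1 of 8 tested genes that were higher without overlap (12.5%, against 17.9% of all tested genes). EIF4A3, a helicase of the exon junction complex that shares the eIF4A name, was at 18.0, 16.5 and 20.6 FPKM in siNC and at 17.4, 17.6 and 17.3 FPKM in siSHMT2. Its siSHMT2 values lay inside the siNC range, with a difference of -0.07 (limma adjusted p = 0.728).

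The brake on eIF4F, EIF4EBP1, had the highest mean FPKM of all 51 genes, while by reads it lay below EIF1, with 3606 to 5698 against 12416 to 15430 reads per library. It was at 234, 417 and 411 FPKM in siNC and at 342, 301 and 396 FPKM in siSHMT2. Replicate 1 of siNC lay below all others, the siSHMT2 values lay within the siNC range, and the means were 354 ± 104 and 346 ± 48.1 FPKM (SD, n = 3 each). The difference was 0.01 (SE 0.244, limma adjusted p = 0.990). The ratio of EIF4EBP1 to EIF4E was 84.0 to 217 in FPKM and 5.26 to 13.6 in reads, since the table divides EIF4E reads by a gene length of 14067 bases and EIF4EBP1 reads by 880 bases. EIF4EBP2 had means of 11.0 and 9.81 FPKM with overlapping groups. EIF4ENIF1, which carries eIF4E into the nucleus and was named after its values were seen, was at 2.94, 2.94 and 3.07 FPKM in siNC and at 2.09, 2.33 and 2.40 FPKM in siSHMT2. Its groups did not overlap, and the difference was -0.28 (SE 0.0949, limma adjusted p = 0.0834).

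Genes around the initiation factors were counted by lists of their roles. Of 9 tested partners of the poly(A) tail and of eIF4F, 1 was called higher, LARP1, and 2 lower, PDCD4 and PAIP1 (33.3% in either direction, against 15.9% of all tested genes). PDCD4, an inhibitor that binds the helicase eIF4A, was at 4.65, 4.57 and 5.11 FPKM in siNC and at 2.00, 2.02 and 1.99 FPKM in siSHMT2. The groups were far apart for their spread, and PDCD4 fell by 0.94 (SE 0.0914, limma adjusted p = 0.000733). Of its exon bases, 29.5% overlap other genes on either strand and 1.45% on the same strand. PAIP1, which binds the poly(A)-binding protein, was at 35.0, 21.5 and 24.9 FPKM and then at 16.6, 17.6 and 14.7 FPKM, with replicate 1 of siNC the highest. It fell by 0.67 (SE 0.176, limma adjusted p = 0.0382). LARP1, which binds the caps of mRNAs for ribosomal proteins, was at 15.8, 11.9 and 16.4 FPKM and then at 21.5, 24.3 and 21.7 FPKM, every siSHMT2 library being higher. It rose by 0.59 (SE 0.136, limma adjusted p = 0.0247).

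Of the 9 eIF2 kinase and phosphatase genes, all tested, 1 was called higher and 1 lower (22.2%, against 15.9% of all tested genes). PPP1CB, a catalytic subunit of protein phosphatase 1, was at 18.3, 14.7 and 14.6 FPKM in siNC and at 23.9, 25.7 and 23.1 FPKM in siSHMT2, without overlap, and rose by 0.59 (SE 0.118, limma adjusted p = 0.0150). EIF2AK2, the kinase PKR that phosphorylates eIF2 when it binds double-stranded RNA, was at 8.44, 9.35 and 7.29 FPKM and then at 6.28, 5.93 and 6.06 FPKM, without overlap, and fell by 0.39 (SE 0.107, limma adjusted p = 0.0439). Of these 5 called partners, PDCD4, PAIP1 and EIF2AK2 held a word in the 3′ UTR, and LARP1 and PPP1CB held neither. The words were picked on the fold changes of these same libraries, so this split is no independent support. Tested partners that were not called also held a word: PAIP2 and EIF2AK4 (differences of 0.28 and 0.12), and DHX29 and GIGYF2 (-0.23 and -0.12). Of all tested protein-coding genes searched, 24.4% held either word. The adjusted p of PDCD4 stayed under 0.05 in all 13 alternative fits that held it, while PAIP1 exceeded it in 8, EIF2AK2 in 9, LARP1 in 5 and PPP1CB in 3, with highest values of 0.148, 0.172, 0.0996 and 0.0694 (each leave-out of a siSHMT2 library ended the calls of all 4). Leaving out siNC replicate 1 or 2 ended the call of EIF2AK2 as well, and leaving out siNC replicate 3 that of PAIP1.

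No gene was called among 11 tested of the mTORC1 pathway and the kinases of eIF4F (lowest limma adjusted p = 0.0536), 6 of reinitiation and recycling (0.104), 5 elongation factors (0.489), 3 termination factors (0.445) and 5 mitochondrial factors (0.217). Of all tested genes, 15.9% were called. At an unadjusted p under 0.05, the mTORC1 list had 2 higher and 1 lower, the reinitiation list 1 higher, and the other 3 lists 0. Over all tested genes these shares were 14.2% higher and 16.0% lower. The median differences of the lists lay between 0.01 and 0.12.

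**Figure D4:**
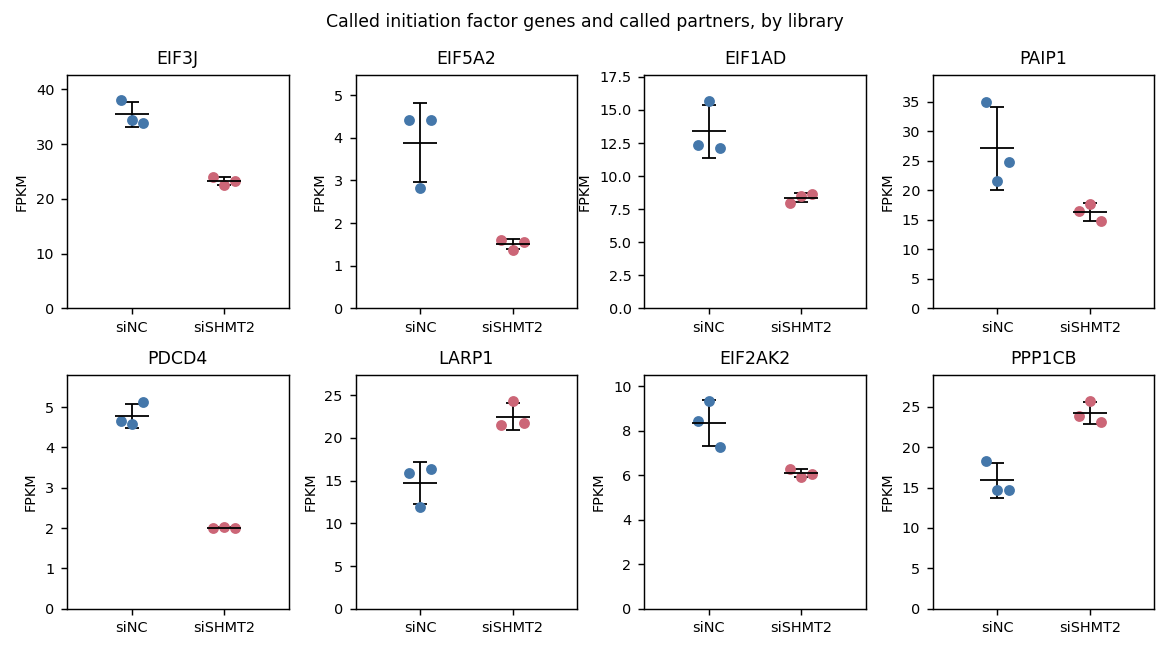
FPKM (y axis, from 0) of the 3 called initiation factor genes and the 5 called partner genes in each library, with the mean as a horizontal line and bars of 1 SD, n = 3 per group. In all 8 panels the siNC and siSHMT2 points do not overlap, with LARP1 and PPP1CB higher in siSHMT2 and the other 6 lower.

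The other 6 genes were below the level for testing. EIF4E3 ranged from 0.500 to 0.664 FPKM, EIF2S3B from 0.0570 to 0.498 FPKM and EIF4EBP3 from 0 to 0.412 FPKM, and EIF4E1B was listed at 0. EIF4A1, the main helicase of eIF4F in most cells, had 0.0752 to 0.203 FPKM on 7 to 17 reads per library. EIF3K, a subunit of eIF3, had 0 to 0.151 FPKM on 0 to 7 reads. Most cells use both genes, so no level was read from these values.

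The counting of copies bears on several of these values. The table lists 71 pseudogenes named after 21 of the initiation factor genes, of which 43 were at 0 throughout and 10 averaged at least 1 FPKM. For EIF4A1, 94.9 to 98.1% of the reads counted at the gene and its pseudogenes stood at the pseudogenes, nearly all at EIF4A1P10 on chromosome X with 311 to 478 reads. Of the exon bases of EIF4A1, 48.6% overlap other genes on the same strand, among them AC016876.2 and the read-through gene SENP3-EIF4A1. EIF3K overlaps no other exon and shares 1.79% of its 50-base stretches with other genes, and its low count was not tested further. The pseudogene share was 7.11 to 16.3% for EIF5A, 2.36 to 14.9% for EIF4E and 6.77 to 10.7% for EIF3F, and it overlapped between the groups for these genes. EIF3CL shares 97.2% of its 50-base stretches with EIF3C, so the split between that pair is uncertain. EIF5A2P1, the pseudogene of EIF5A2, was listed at 0, and no pseudogene of EIF3J or EIF1AD was among the 71.

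**Figure D5:**
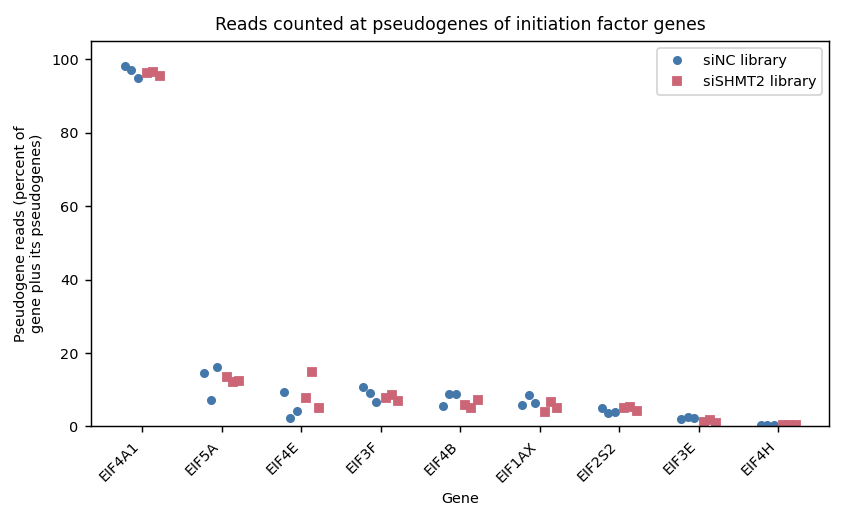
Share of reads counted at pseudogenes (y axis, percent of the reads at a gene and its pseudogenes) for the initiation factor genes with a pseudogene averaging at least 1 FPKM, by library, siNC as circles and siSHMT2 as squares. EIF4A1 lies at 94.9 to 98.1%, and the highest value of any other gene is 16.3%, for EIF5A.

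The initiation factor genes varied more among siNC than among siSHMT2 libraries. The median SD over the 45 tested genes was 0.173 in siNC and 0.0748 in siSHMT2 on the log2(FPKM + 1) scale, against 0.191 and 0.105 over all tested genes. Across the 45 genes, a library's deviations from its group mean went with the GC content of the 3′ UTR with differing sign and degree. Pearson's r was -0.63 in siNC replicate 1, 0.53 in replicate 2 and 0.24 in replicate 3, and -0.03, -0.49 and 0.56 in siSHMT2 replicates 1, 2 and 3 (Spearman's rho -0.61, 0.56, 0.15, -0.11, -0.43 and 0.54). These are descriptions over genes that share each library, and deviations within a group sum to 0. The correlations were not computed over all tested genes, so they mark no trait of the initiation factor genes. In siNC replicate 1 the lowest deviation was that of EIF4EBP1 at -0.55 and the highest that of EIF3L at 0.45.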

How the data were processed

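The authors deposited FPKM values for 6 libraries. The submitters' processing notes name hg18 as the build, HISAT2 (2.0.5) and featureCounts (1.5.0-p3). Per the labels, total RNA was taken with Trizol and a SMARTer kit was used. Coordinates are those of the table: of 58516 identifiers shared with GENCODE 29 on GRCh38, 79.7% had identical ends and nearly all overlapped. Whole reads were recovered from FPKM and gene length, every value above 0 (100%) being whole to within 0.02 read. The totals behind the FPKM, 14487813 to 17495471, had been rescaled by a step that these sources do not state. Genes averaging at least 1 FPKM were tested on log2(FPKM + 1) with limma (version 3.58.1, R 4.3.3, moderation with an intensity trend), with p-values adjusted by Benjamini-Hochberg, and this scale understates changes of low genes. Groups and replicate numbers came from sample titles. The members and lists were chosen with earlier results of these data known. Values in every library are given for called members, the most abundant of each complex and EIF4EBP1, EIF4E, EIF2S1 and EIF5A, and for called genes of each list (at most 4). Other members given with a test were named after their values were seen. Replicates of each group differed by more than sampling noise (chi-square per gene 6.71 to 43.6). Alternatives changed the pseudocount (0.1), filter (none, or 5 FPKM), scaling, weights, pairing and tool (limma voom on recovered reads, TMM scaling), and left out each library.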

Additional observations from a re-analysis of the deposited data

How the results depend on the processing

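SHMT2 kept its call in all 14 alternatives, EIF5A2 in all 13 that held it, EIF3J in 13 of 14 (TPM gave -0.51) and EIF1AD in 13 of 14 (without siSHMT2 replicate 1, -0.58). The count of initiation factor genes called higher went from 0 to 1 with TPM, 2 with plain read sums and 5 with array weights (EIF1AX, EIF2B1, EIF2B2, EIF3F and EIF4E), which also called 10 lower (EIF2B4, EIF2S1, EIF2S3, EIF3E, EIF3H, EIF3M and EIF4ENIF1 beside the same 3), and 1827 higher and 1976 lower of all genes. Leaving out 1 library gave 0 to 1 higher and 2 to 5 lower, with EIF2B4 and EIF3M added without siNC replicate 1, EIF3F without siNC replicate 2, and EIF1AD lost without siSHMT2 replicate 1. Of all genes, these fits called 2.11 to 6.71% higher and 4.60 to 10.4% lower. Both shares were lowest without siSHMT2 replicate 1 and highest without siNC replicate 2. EIF3M was also called lower with a minimum of 5 FPKM and with voom. The median difference, -0.012, was 0.0052 with no filter, -0.030 with a minimum of 5 FPKM, 0.079 with TPM (0.11 over all genes), 0.053 with plain sums, -0.031 with array weights, and -0.073 to 0.014 without single libraries. Differences of some genes that were not called changed sign, while those of others, such as EIF5A, EIF4E and EIF2S2, kept it. With TPM, EIF4H was at 0.063, EIF4A3 at 0.025 and EIF2A at 0.043, and with plain sums they were at 0.047, 0.0083 and 0.026. EIF2S2 was -0.11 with plain sums. With array weights, EIF4EBP1 was at -0.18 and EIF2A at 0.063, and with voom EIF4EBP1 was at -0.0076. Without single libraries, EIF3I ranged from -0.073 to 0.099, EIF4EBP1 from -0.27 to 0.15, EIF4H from -0.090 to 0.022, EIF4A3 from -0.14 to 0.016, EIF5A from 0.0014 to 0.17, EIF4E from 0.024 to 0.22, EIF2S2 from -0.23 to -0.11, EIF2A from -0.087 to 0.034 and EIF6 from -0.36 to 0.0096. The cause was not tested.

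With the replicate block, 0 initiation factor genes were called higher and 3 lower, with 374 higher and 696 lower of all genes, against 659 and 1070 without it. The labels do not say whether replicate numbers mark pairs. Deviations of same-numbered libraries correlated at -0.02, -0.35 and 0.24, and not every library correlated best with its own number. Deviations of 3 libraries sum to 0 within each group, so these correlations cannot decide whether libraries were paired. The planned edgeR fit was computed on the recovered reads and then left out, since count models were kept to deposited counts; limma voom stands for the recovered reads. Low read numbers limit EIF4A1, EIF3K, EIF4EBP3 and EIF2S3B, for which no difference was tested.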

Other observations

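Other translation genes had very few reads although cells need them, and they are named after their values were seen. EEF1G, a subunit of the elongation factor that recharges eEF1A, was listed at 0 in all 6 libraries, and 99.9% of its exon bases overlap another gene on the same strand. MCTS1, which works with DENR in reinitiation, had 0 to 4 reads per library, and DENR had 1126 to 1683. TSFM, a mitochondrial elongation factor, had 1 to 6 reads, while its partner TUFM had 6063 to 7465. EEF1A1, the most abundant elongation factor listed, averaged 1028 ± 127 FPKM in siNC and 981 ± 106 FPKM in siSHMT2 (SD, n = 3 each), and the groups overlapped.

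EIF3EP1, a pseudogene of EIF3E on chromosome 6, was at 1.82, 1.99 and 1.79 FPKM in siNC and at 0.758, 1.19 and 0.673 FPKM in siSHMT2, on 14 to 42 reads per library. It fell by 0.62 (SE 0.136, limma adjusted p = 0.020). EIF3E was not called but was also lower in siSHMT2, by 0.30 and without overlap (limma adjusted p = 0.0963). No other of the 10 pseudogenes averaging at least 1 FPKM was called (next lowest limma adjusted p = 0.195, for EIF4BP3), against 15.9% of all tested genes called.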
